A study of Mus musculus with 24 samples.

Results

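The core myelin genes are 9 genes whose products build, compact or maintain the myelin sheath that oligodendrocytes wrap around axons: Mbp, Mog, Mag, Mobp, Cnp, Cldn11, Ugt8a, Mal and Opalin. They were taken by name from the deposited gene tables, and 9 of 9 were found among 54532 genes. The question was whether brains with a Polr3a mutation held less of these transcripts. Mutations of POLR3A, the human gene of the largest subunit of RNA polymerase III, cause a hypomyelinating leukodystrophy, a disease in which brain white matter forms poorly.

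RNA with poly(A) tails was sequenced from C57BL/6J mice that had all received tamoxifen at postnatal day 28 (P28), which induced recombination. Mutant mice carried the Polr3a mutation, and wild type mice did not. Cerebrum was taken at P42 and at P75 and cerebellum at P42, with 4 mutant and 4 wild type libraries each time, 24 libraries in all. The interval since tamoxifen was 14 days at P42 and 47 days at P75. Males and females were 2 each in mutant cerebellum and in either group of P42 cerebrum; wild type cerebellum held 3 males and 1 female, and every P75 library came from a male. The labels name neither the Cre line nor the cells in which it acts, nor whether wild types carried it. They do not say that each library came from its own animal, so p-values measure only the spread between libraries, which may be technical.

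Oligodendrocytes extend their membrane in a spiral around axons. Myelin basic protein (Mbp) and myelin-associated oligodendrocytic basic protein (Mobp) hold the cytoplasmic membrane faces together, and Cnp, a phosphodiesterase, keeps cytoplasmic channels open within the sheath. Mag lies on the innermost turn and faces the axon, Mog lies on the outer surface, Cldn11 forms the tight junctions between turns, and Mal carries lipids and proteins into the membrane. Ugt8a makes galactosylceramide, the glycolipid most typical of myelin, and Opalin is a membrane protein of mature oligodendrocytes at the paranodal loops. Myelination of the mouse brain is well advanced by P28, so the mutation was induced after much of the sheath had formed. In RNA from whole tissue, fewer oligodendrocytes and less RNA per oligodendrocyte cannot be told apart.

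The promoters of Mobp, Ugt8a and Opalin are shown as 3 examples. Mobp had the window with the most motif matches among the 8 members searched, and windows of Mbp were not searched. Ugt8a was the gene called at P75, and Opalin the gene whose groups lay apart in cerebellum. Each window runs from 250 bases before to 50 bases after the RefSeq start site (GRCm38.p6, the build of the tables) and is written 5′ to 3′ along the gene. Capitals mark matches on either strand to 4 motifs: AACAAT and ACAAAG, bound by SOX proteins, CTGGCAC, bound by MYRF, and CAGCTG, an E-box bound by OLIG2. SOX10, MYRF and OLIG2 are the transcription factors that direct oligodendrocyte differentiation.
Mobp, chr9:120149492-120149791, + strand: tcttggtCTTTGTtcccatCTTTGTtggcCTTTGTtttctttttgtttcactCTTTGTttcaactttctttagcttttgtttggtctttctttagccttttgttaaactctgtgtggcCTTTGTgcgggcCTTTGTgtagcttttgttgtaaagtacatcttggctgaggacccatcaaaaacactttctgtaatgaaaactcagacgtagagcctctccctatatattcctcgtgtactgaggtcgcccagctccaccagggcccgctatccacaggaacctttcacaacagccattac
Ugt8a, chr3:125938603-125938902, − strand: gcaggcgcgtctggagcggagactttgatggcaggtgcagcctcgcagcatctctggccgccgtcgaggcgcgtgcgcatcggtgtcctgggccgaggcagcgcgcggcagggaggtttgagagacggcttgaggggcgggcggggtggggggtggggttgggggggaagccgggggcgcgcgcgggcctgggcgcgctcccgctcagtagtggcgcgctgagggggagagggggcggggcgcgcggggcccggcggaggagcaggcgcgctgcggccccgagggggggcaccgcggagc
Opalin, chr19:41077064-41077363, − strand: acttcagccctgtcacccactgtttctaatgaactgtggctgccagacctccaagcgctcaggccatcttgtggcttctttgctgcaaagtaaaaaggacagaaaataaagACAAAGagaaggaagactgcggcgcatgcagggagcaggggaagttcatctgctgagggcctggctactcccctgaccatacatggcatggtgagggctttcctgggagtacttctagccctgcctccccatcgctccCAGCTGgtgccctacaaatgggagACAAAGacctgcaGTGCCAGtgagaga
Mobp lies on chromosome 9 (120149707 to 120181484), Ugt8a on chromosome 3 (125865271 to 125938619) and Opalin on chromosome 19 (41062474 to 41077113), in mm10 coordinates of the tables. The Mobp window held ACAAAG at 6 places, all on the opposite strand and all between 243 and 120 bases before the start site. Among 32851 windows of this length in the table, 18.7% held ACAAAG at all and 1, that of Mobp, held it at 6 or more places; this count was chosen after the matches were seen. The Opalin window held ACAAAG at 2 places, CTGGCAC at 1 and CAGCTG at 1, and the windows of Ugt8a, Mog, Cldn11 and Mal held none of the 4 motifs. AACAAT was present in 10.7% of all windows, CTGGCAC in 5.01% and CAGCTG in 16.3%, and 42.2% held at least 1 of the 4. In 10 windows of 8 members, 4 members held at least 1 motif: Mag, Mobp, Cnp and Opalin. CTGGCAC occurred in windows of Mag, Cnp and Opalin. These are matches of letters and say nothing of binding.

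Libraries held 13832721 to 23175864 counts, and the 9 genes together took 0.435% to 1.27% of them. Polr3a itself had 33.0 to 38.7 CPM (read counts scaled to a common library size) in mutant and 35.6 to 44.3 CPM in wild type cerebrum at P42, 43.9 to 57.2 CPM and 41.3 to 59.0 CPM in mutant and wild type cerebellum, and 30.0 to 33.1 CPM and 30.3 to 37.8 CPM in mutant and wild type cerebrum at P75. The groups overlapped each time, and counts over the whole gene do not show which allele was read. Some libraries stood apart in their levels of tissue markers. These marker lists were chosen with earlier results of these data known, so their counts are a description. In cerebrum at P42, 21 of 21 measured markers of thalamus, hypothalamus and midbrain had positive log2 fold changes in mutants (median 1.54, against 0.01 over all genes tested); their mean log2(CPM + 0.5) was 2.02, 3.46, 4.36 and 4.25 in mutant replicates 1 to 4 and 1.21, 0.87, 2.31 and 2.73 in the wild types, and their summed level 578 to 1038 CPM and 101 to 316 CPM, with 0 of 22 markers at 0. In cerebellum, 8 of 8 choroid plexus markers had negative log2 fold changes in mutants (median -1.57), and their summed level was 39.7 to 1026 CPM in mutants and 1357 to 2393 CPM in wild types, with 0 of 8 at 0. Granule and Purkinje cell markers had a mean log2 level of 9.15, 7.95, 9.0 and 7.25 in the cerebellar mutants and 8.34 to 8.95 in the wild types. In cerebrum at P42 these markers had 2.73, 2.83, 3.13 and 4.5 in mutant replicates 1 to 4. The wild types had 4.85, 2.27, 2.86 and 2.69, and the part of cerebellar cells in the members' levels was not tested. At P75, 10 interferon-stimulated genes summed to 382 to 1064 CPM in mutants, highest in replicates 1 and 2, and to 38.3 to 48.4 CPM in wild types. Defining Schwann cell markers were low throughout, at a mean log2 level of 0.16 to 1.48.

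The 9 transcripts spanned a wide range of abundance, and their order was nearly the same in every group. Levels were set against each other only as CPM per kilobase of the gene length in the tables. Mbp was the most abundant, at 546 ± 121 CPM per kilobase in mutants and 348 ± 92.0 in wild types (SD, n = 4 each) in P42 cerebrum. Mobp came next, at 279.6 ± 39.0 in the mutants and 188 ± 29.8 in the wild types. Cnp, Cldn11 and Mal formed a middle class whose neighbours overlapped within 1 SD in all 6 groups. At P75 Mobp overlapped this class too, in both genotypes, and in mutant cerebellum the spreads of Mbp and Mobp met. Mag and Mog followed, then Ugt8a at 17.5 ± 6.34 in the mutants and 17.9 ± 4.04 in the wild types, and Opalin was lowest at 9.97 ± 4.36 and 10.7 ± 3.33 CPM per kilobase in mutant and wild type cerebrum at P42. Ugt8a and Opalin differed by less than their spread in both cerebrum groups at P42 and by more than it in the other 4 groups.

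**Figure D1:**
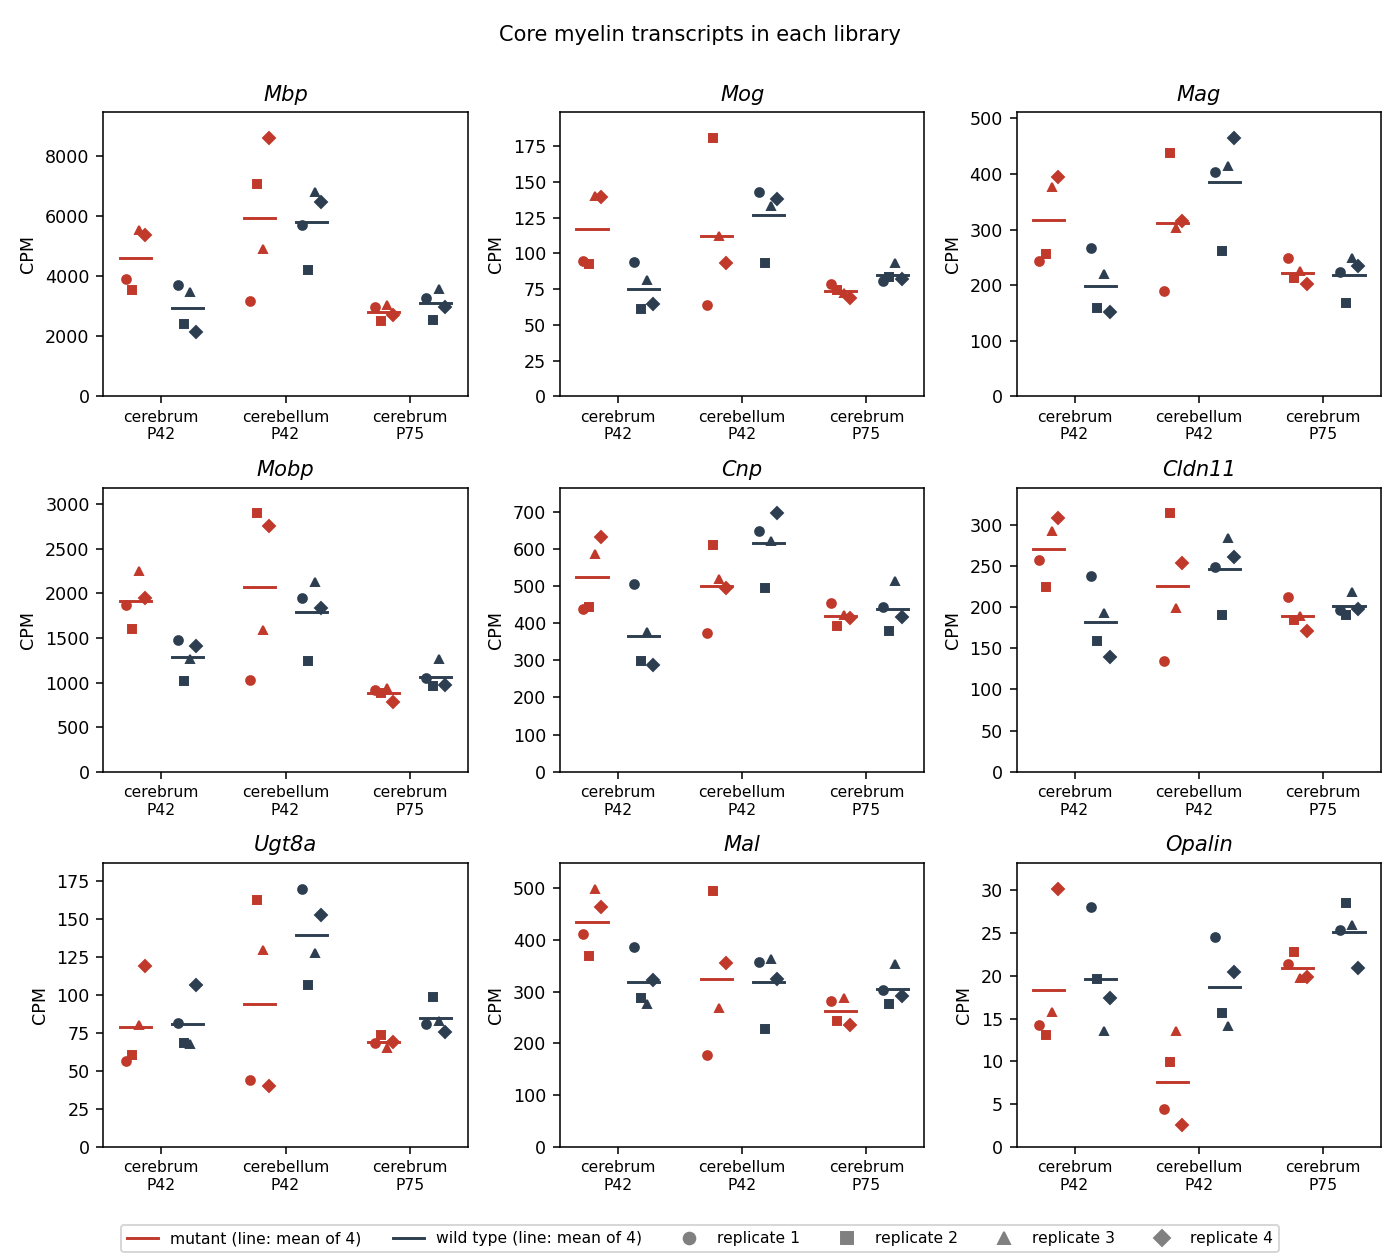
CPM of each core myelin gene in each of 24 libraries (y axis, linear from 0), by tissue and age; red symbols are mutants, dark symbols wild types, marker shapes the replicate numbers and horizontal lines the means of 4 libraries. In cerebrum at P42 the mutant means of 7 genes lie above the wild type means, in cerebellum the mutant libraries of Mbp, Mobp and Ugt8a scatter more than the wild types, and in cerebrum at P75 the groups lie close together.

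In mutant cerebrum at P42, 7 of the 9 transcripts had higher means than in wild types, by 1.37 to 1.63 times, and Ugt8a and Opalin did not. None of the 9 passed the test across all genes, which 0.0165% of all genes passed (adjusted p under 0.05). Mbp had 3904, 3526, 5528 and 5377 CPM in the mutant libraries, against 3699, 2404, 3474 and 2136 CPM in the wild types. Mutant replicates 3 and 4 were the highest of the 8, and the lowest mutant lay below the highest wild type. The log2 fold change of Mbp was 0.68 ± 0.20 (SE), with an adjusted p of 0.352 (edgeR quasi-likelihood test, Benjamini-Hochberg over 18205 genes).

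Mobp was the only member whose groups did not overlap in cerebrum at P42. It had 1871, 1598, 2248 and 1943 CPM in mutants, against 1476, 1013, 1266 and 1407 CPM in wild types. The log2 fold change was 0.57 ± 0.15 (SE, adjusted p = 0.340); no overlap with mutants higher was seen for 3.53% of all genes tested. DESeq2 gave Mobp an adjusted p of 0.0425, and the authors' deposited table gives 0.0558 beside a log2 fold change of 0.56.

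Mog, the surface protein, had 94.6, 92.8, 139.8 and 139.6 CPM in mutant cerebrum at P42, against 93.7, 60.9, 81.3 and 64.4 CPM in wild types. Here too mutant replicates 3 and 4 were highest, while mutant replicates 1 and 2 lay close to wild type replicate 1. Mag, the axon-facing adhesion protein, ranged from 244 to 395 CPM in mutants and from 151 to 266 CPM in wild types. Cnp ranged from 438 to 633 CPM in mutants and from 288 to 507 CPM in wild types. Cldn11, the tight junction protein, ranged from 224 to 309 CPM in mutants and from 139.6 to 238 CPM in wild types. The groups overlapped for Mag, Cnp, Cldn11 and Mal. Mal ranged from 368 to 499 CPM in mutants and from 276 to 386 CPM in wild types. The log2 fold changes of these 5 genes lay between 0.45 and 0.71, with adjusted p from 0.340 to 0.371 in edgeR's quasi-likelihood test.

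For the glycolipid enzyme Ugt8a and the late marker Opalin the log2 fold changes lay near 0, but their intervals also held the value of Mal, and no test set them against the other 7 genes. Ugt8a had 56.3, 60.5, 80.6 and 119 CPM in mutant cerebrum at P42, against 81.7, 68.3, 67.6 and 107 CPM in wild types. Its log2 fold change was -0.04 ± 0.23 (SE, 95% interval -0.57 to 0.48). Opalin had 14.2, 13.1, 15.8 and 30.2 CPM in mutants, against 28, 19.6, 13.6 and 17.4 CPM in wild types. Its log2 fold change was -0.12 ± 0.31. Mutant replicate 4 held the highest value of both genes, and the groups overlapped for both. Ugt8a has the transcript poorest in G and C among the members, 38.0% of its longest annotated transcript, against 45.8% for Opalin and 48.9% to 57.6% for the others. In the same libraries the medians of the most GC-rich decile of genes stood 0.25 to 0.44 above those of the most GC-poor decile in mutants, on the log2 scale and relative to the wild type means, against -0.67 to 0.50 in wild types; the part of this lean in the Ugt8a values was not tested.

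At an unadjusted p under 0.05, 7 of 9 members were higher in mutant cerebrum at P42, where 6.94% of all genes tested were higher at that p, and DESeq2 called 1 member after adjustment. Without mutant replicates 3 and 4, which had the highest mean level of deep region markers, the members' median log2 fold change was 0.34 instead of 0.57, and Mbp, Mog and Mobp had 0.38, 0.34 and 0.42. Adjusting for the mean level of those markers gave the same median, 0.34. The markers were themselves higher on average in mutants, and replicates 3 and 4 were also the mutants with the highest level of each member. Neither fit can therefore tell these regions from genotype, and their part in the higher levels was not tested. Cortical and hippocampal excitatory neuron markers had negative log2 fold changes for 10 of 10 genes (median -0.87), 0 of them past the test or at an unadjusted p under 0.05, and summed to 461 to 1863 CPM in mutants and 1601 to 2463 CPM in wild types. Their mean log2 level was 6.45, 6.21, 3.72 and 4.48 in mutant replicates 1 to 4. In the wild types it was 6.98, 6.36, 6.52 and 6.22, so only mutant replicates 3 and 4 lay well below the wild types. Microglia markers were negative for 10 of 10 (median -0.36, 6 at an unadjusted p under 0.05, 0 past the adjusted test) and summed to 225 to 246 CPM in mutants and 286 to 337 CPM in wild types. Choroid plexus markers were negative for 7 of 8 (median -1.14, 4 at an unadjusted p under 0.05, 0 past the adjusted test) and summed to 87.4 to 442 CPM in mutants and 217 to 1269 CPM in wild types. Over all genes, 1035 of 18205 were lower at an unadjusted p under 0.05. In the microglia and choroid plexus lists 0 markers were at 0, and the part of these cells in the members' levels was not tested. Beside the members, 24 further genes of myelin and mature oligodendrocytes were examined: 21 were positive, 14 of them at an unadjusted p under 0.05, 0 passed the adjusted test, and the median was 0.38; Hapln2, a link protein of the node, had 1.43 ± 0.32 and Tppp3 1.03 ± 0.22 (adjusted p = 0.275 and 0.264, edgeR).

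**Figure D2:**
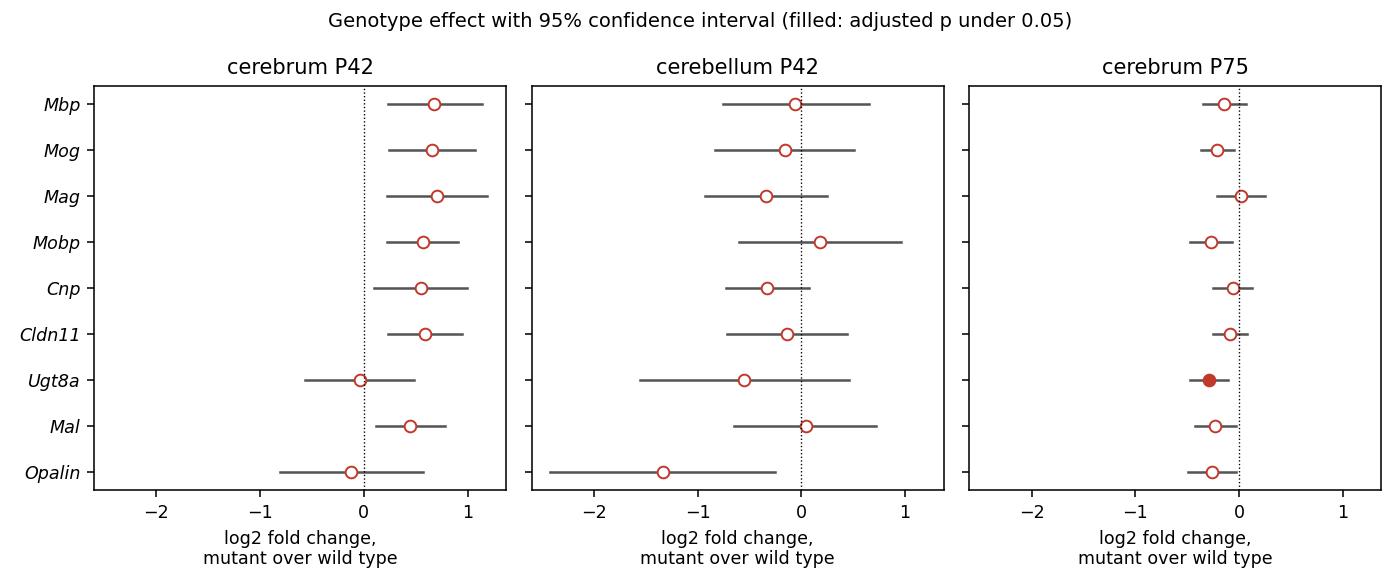
Log2 fold change, mutant over wild type (x axis), of each member (y axis) in P42 cerebrum, P42 cerebellum and P75 cerebrum, with 95% confidence intervals from edgeR; filled points passed an adjusted p of 0.05. The intervals of 7 genes lie above 0 in cerebrum at P42, those of cerebellum are wider than those of P42 cerebrum for every gene but Cnp, and those of cerebrum at P75 are the narrowest, with Ugt8a the only filled point.

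In cerebellum at P42 the coefficient of variation was 19.6% to 66.4% in mutants and 13.9% to 25.4% in wild types, although for Opalin, Cnp and Mag the SDs in CPM were close (5.07, 98 and 101 in mutants, against 4.75, 85.6 and 87 in wild types). In this tissue 1 of 9 members, Opalin, had groups that did not overlap, as did 1.58% of all genes tested with mutants lower. Mbp had 3172, 7063, 4892 and 8578 CPM in mutants, against 5683, 4203, 6796 and 6468 CPM in wild types. Both the lowest and the highest of the 8 libraries were mutants. The log2 fold change was -0.06 ± 0.31, with a 95% interval of -0.76 to 0.65 (adjusted p = 1, edgeR quasi-likelihood test over 17616 genes). In folds this interval ran from 0.591 to 1.56, so smaller differences were not detectable at this spread.

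Opalin had 4.45, 9.91, 13.6 and 2.55 CPM in mutant cerebellum, against 24.6, 15.7, 14.1 and 20.5 CPM in wild types. Every mutant was below every wild type, although mutant replicate 3 and wild type replicate 3 differed by little. The log2 fold change was -1.33 ± 0.48, a level 0.397 times that of wild types with a 95% interval of 0.187 to 0.842. Its unadjusted p was 0.0215 and its adjusted p 0.967. An unadjusted p under 0.05 with mutants lower was found for 2.43% of all genes tested. Over all alternatives the log2 fold change of Opalin in cerebellum stayed between -2.03 and -0.75, and it passed the adjusted test in 1 of 19, the fit with no filter on low counts (adjusted p = 1.29e-06).

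Mutant cerebellum replicates 1 and 4 were low in Opalin and Ugt8a but differed in the other 7 genes. Ugt8a had 43.8, 163, 129.8 and 40.1 CPM in mutants, against 170.2, 107, 128 and 153 CPM in wild types (log2 fold change -0.55 ± 0.45, adjusted p = 0.974). Replicates 1 and 4 thus lay below every wild type, and replicates 2 and 3 within the wild type range. In replicate 1 each member lay below the wild type mean, with differences of -0.71 (Cnp) to -1.92 (Opalin) on the log2 scale. In replicate 4, the difference from the wild type mean was -2.62 for Opalin and -1.76 for Ugt8a, while it was 0.59 for Mbp and 0.65 for Mobp. The other 5 genes lay between these in that library, with Mal at 0.19, Cldn11 at 0.06, Mag at -0.26, Cnp at -0.31 and Mog at -0.42. Replicate 4 also had the lowest level of granule and Purkinje cell markers, 7.25 against 8.34 to 8.95 in wild types, and replicate 1 the lowest level of choroid plexus markers, 1.34 against 4.78 to 5.32. The difference between GC-rich and GC-poor genes was -0.04 and -0.01 in these 2 libraries, within the -0.20 to 0.34 of the wild types. In mutant replicates 2 and 3 it was -0.57 and -0.22, below that range. The part of tissue content or of this lean in these values was not tested.

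Mog, at 63.6, 180.4, 112 and 93.4 CPM in cerebellar mutants and 143, 93.4, 133 and 138 CPM in wild types, and Mobp, at 1028, 2896, 1584 and 2758 CPM in mutants and 1947, 1245, 2126 and 1834 CPM in wild types, gave log2 fold changes of -0.16 ± 0.30 and 0.18 ± 0.34. For both genes the mutant values enclosed those of the wild types. Mag, Cnp, Cldn11 and Mal had log2 fold changes of -0.34, -0.33, -0.14 and 0.04, with adjusted p of 0.967 or more. The members' median was -0.16, and 0 of 9 passed the adjusted test, where 0.0114% of all genes passed; 1 of 9 had an unadjusted p under 0.05, and DESeq2 called 0. Without mutant replicates 1 and 4 together the median was 0.07, without mutant replicate 2 it was -0.56, without mutant replicate 1 it was 0.09, and with the choroid plexus markers as a covariate it was 0.49. The direction of the median in cerebellum therefore changed with the libraries and the covariate.

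**Figure D3:**
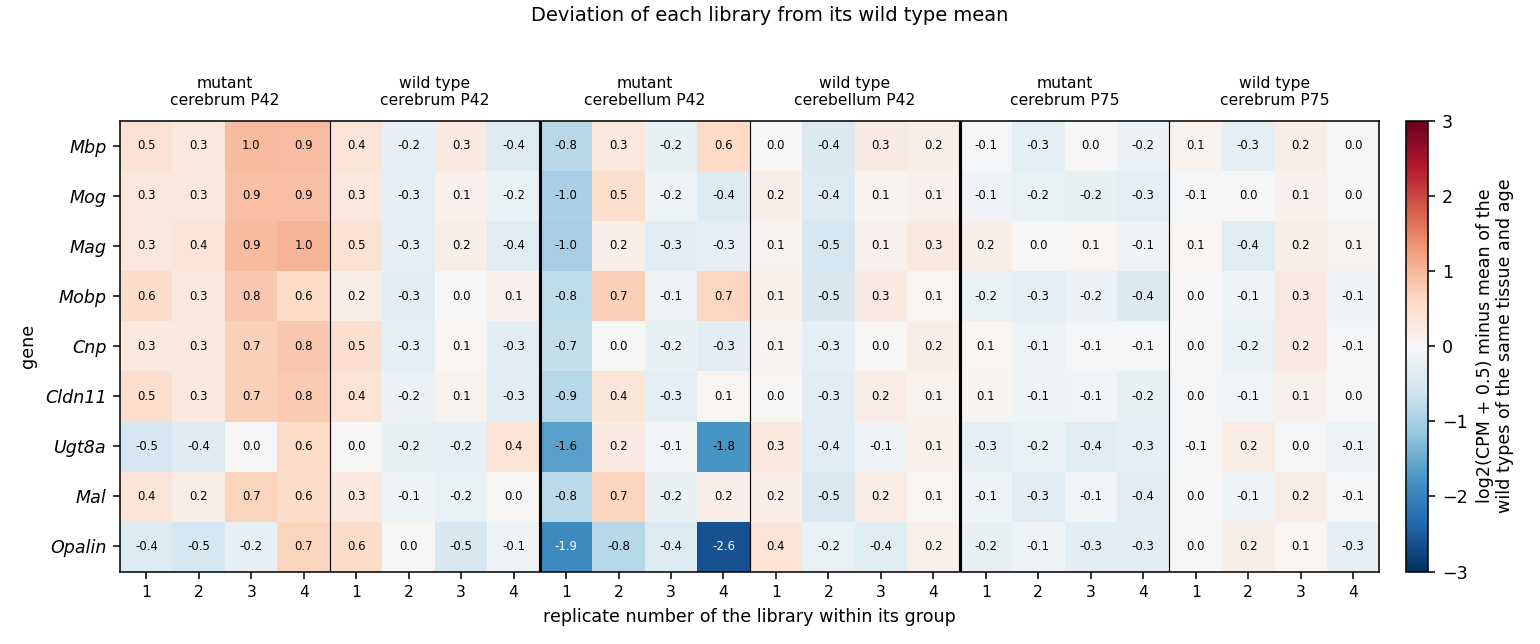
Log2(CPM + 0.5) of each member (rows) in each library (columns, replicate numbers within 6 groups) minus the mean of the wild types of the same tissue and age; red is higher, blue lower, and each cell gives its value. Mutant cerebrum replicates 3 and 4 at P42 are red for 7 genes, mutant cerebellum replicates 1 and 4 are darkest blue for Ugt8a and Opalin, and the P75 mutants are pale.

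In cerebrum at P75 8 of 9 members had negative log2 fold changes in mutants, and 1, Ugt8a, passed the test across all genes, where 6.62% of all genes were called lower. Ugt8a had 68.2, 73.5, 65.4 and 69.2 CPM in mutants, against 81.1, 98.7, 82.7 and 76.0 CPM in wild types. Every mutant lay below every wild type, with 73.5 CPM in the highest mutant and 76.0 CPM in the lowest wild type. The level in mutants was 0.816 times that in wild types (95% interval 0.720 to 0.925), a log2 fold change of -0.29 ± 0.08 (SE) with an adjusted p of 0.0326 (edgeR quasi-likelihood test over 17523 genes). The authors' deposited table gives -0.30 and an adjusted p of 0.0152 for this gene.

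The call of Ugt8a rests on the full set of libraries. It was lost without mutant replicate 1, 3 or 4 or wild type replicate 1 or 3 (log2 fold changes -0.32 to -0.27, adjusted p from 0.0517 to 0.0890), and the gene kept its call without mutant replicate 2 or wild type replicate 2 or 4. It was also lost with scaling by library size alone (-0.19, adjusted p = 0.132), a scaling that moved the median of all genes by 0.11. Over 16 alternatives the log2 fold change ran from -0.34 to -0.19 and the adjusted p from 0.00828 to 0.132. Wild type replicate 2, the highest in Ugt8a, leaned toward GC-poor genes, with a GC-rich minus GC-poor difference of -0.39 against 0.12 to 0.14 in the other wild types and -0.14 to 0.14 in the mutants; without it the log2 fold change was -0.21 (adjusted p = 0.0480, edgeR).

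Mobp and Mog were the other members whose groups did not overlap at P75. Mobp had 919, 877, 940.2 and 778 CPM in mutants, against 1046, 962, 1266 and 974 CPM in wild types. Its log2 fold change was -0.27 ± 0.09 (adjusted p = 0.0655, edgeR). Mog had 78.9, 74.2, 72.2 and 69.0 CPM in mutants, against 80.5, 83.4, 93.6 and 82.2 CPM in wild types. Its log2 fold change was -0.21 ± 0.07 (adjusted p = 0.0765, edgeR). In both genes the distance between the nearest mutant and wild type was small against the spread within wild types. DESeq2 called Ugt8a, Mobp and Mog, and the authors' deposited table gives Mobp 0.0303 and Mog 0.0469 as adjusted p.

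Mbp, the major structural protein, had 2972, 2516, 3022 and 2702 CPM in mutants at P75, against 3278, 2541, 3556 and 2986 CPM in wild types. The groups overlapped, and the fold was 0.907 with a 95% interval of 0.783 to 1.05. Mag had a log2 fold change of 0.02 ± 0.11, Cnp -0.06 ± 0.09 and Cldn11 -0.09 ± 0.08. Mal and Opalin had -0.23 ± 0.09 and -0.26 ± 0.11, with adjusted p of 0.110 and 0.123 (edgeR). Opalin had 21.4, 22.8, 19.8 and 19.9 CPM in mutants, against 25.4, 28.5, 25.9 and 20.9 CPM in wild types, so that 1 wild type lay among the mutants.

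Over the 9 members at P75, 1 was called lower and 0 were called higher, where 7.66% of all genes were called higher. An unadjusted p under 0.05 with mutants lower was found for 5 of 9 members and 14.2% of all genes, and groups apart with mutants lower for 3 of 9 members and 9.87% of all genes. The median log2 fold change was -0.21, against 0.00 over all genes. Without mutant replicates 1 and 2, whose interferon-stimulated genes were highest, the median was -0.22 and 0 members passed. Mitochondrial transcripts took 3.13% to 3.85% of counts in P75 mutants and 4.44% to 5.64% in the wild types. Schwann cell markers, from the other cells that make Mbp and Mag, summed to 41.4 to 56.5 CPM in mutants and 23.4 to 35.7 CPM in wild types. Of 6 tested, 2 were called higher, Egr2 (1.04 ± 0.26) and Dhh (2.13 ± 0.56). Of the 8 markers, 4 averaged under 1 CPM in mutants and 5 in wild types. Between wild type tissues at P42, Egr2 had a log2 difference of -5.2 ± 0.64 (cerebellum over cerebrum). These calls therefore do not measure Schwann cell content. The part of mitochondrial transcripts and of Schwann cells in the results was not tested.

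The genotype effect on the members was then compared between ages, each age against its own wild types. Every P75 library came from a male, so an effect that differs with sex cannot be told apart from one that differs with age. All 9 members had a more negative effect at P75 than at P42 (median difference -0.68 on the log2 scale), and 2 passed the interaction test over 16 cerebrum libraries, where 0.345% of all genes passed in this direction. The difference was -0.84 ± 0.18 for Mobp (adjusted p = 0.0269) and -0.86 ± 0.20 for Mog (adjusted p = 0.0424, edgeR quasi-likelihood test over 17680 genes). Mobp thus had a log2 fold change of 0.57 at P42 and of -0.27 at P75. Mbp, Cldn11 and Mal had differences of -0.82, -0.68 and -0.67 with adjusted p of 0.0937, 0.0707 and 0.0717, and Ugt8a and Opalin had -0.24 and -0.13. At an unadjusted p under 0.05, 7 of 9 members and 6.61% of all genes had a more negative effect at P75.

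Both calls were lost without the P42 libraries with the highest mean level of deep region markers. These were also the P42 cerebrum libraries with the highest levels of both genes. Without mutant replicates 3 and 4 of P42, Mobp had -0.69 (adjusted p = 0.128) and Mog -0.54 (adjusted p = 0.142), and with adjustment for deep region markers -0.57 (adjusted p = 0.20) and -0.51 (adjusted p = 0.346). Leaving out a single library ended the call of Mobp in 7 of 16 fits (mutant replicates 1 or 2 and wild type replicates 1 or 3 of P75, mutant replicates 3 or 4 and wild type replicate 2 of P42; -0.88 to -0.74, adjusted p from 0.0517 to 0.0699). It ended the call of Mog in 13 of 16 fits, all but those without mutant replicate 1, mutant replicate 2 or wild type replicate 1 of P42 (-0.91 to -0.68, adjusted p from 0.0550 to 0.108). Without mutant replicate 1 of P42, 7 members passed, and without wild type replicate 1 of P42, 4 passed. Over all genes, the fit without mutant replicate 1 called 1195 of 17861, 566 of them more negative at P75. Without wild type replicate 1 the calls numbered 229, 74 of them more negative, and with all libraries 250 and 61.

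Between tissues at P42, the genotype effect was more positive in cerebrum than in cerebellum for 9 of 9 members, with a median difference of 0.67 on the log2 scale. The labels do not say whether cerebrum and cerebellum libraries came from the same mice. This comparison and that between wild type tissues took all libraries as independent. The interaction test called 0 of 9 members, as it called 0 of 17919 genes (0%). An unadjusted p under 0.05 was found for Cnp (0.80 ± 0.28), Mag (0.97 ± 0.37) and Mog (0.78 ± 0.37), 3 of 9 members, against 3.29% of all genes with a difference in this direction, and DESeq2 called 0 members. Opalin had the largest difference, 1.21 ± 0.58 (95% interval -0.03 to 2.45).

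Without the mutation, cerebellum held more of 5 of the 9 transcripts than cerebrum at P42, where 14.1% of all genes were called higher in cerebellum. Mbp had 5683, 4203, 6796 and 6468 CPM in wild type cerebellum, against 3699, 2404, 3474 and 2136 CPM in wild type cerebrum, a log2 difference of 0.87 ± 0.20 (adjusted p = 0.00870, edgeR quasi-likelihood test over 17964 genes). In CPM the tissues did not overlap for Mbp and Ugt8a, as for 21.8% of all genes with cerebellum higher. CPM were scaled within each tissue, so this overlap compares unlike scales. For Ugt8a the nearest libraries, cerebrum replicate 4 and cerebellum replicate 2, both had 107 CPM. Mag, Ugt8a, Mog and Cnp were higher in cerebellum by 0.85, 0.75, 0.64 and 0.64 on the log2 scale, with adjusted p from 0.0109 to 0.0242. Mobp, Cldn11, Mal and Opalin had 0.37, 0.31, -0.10 and -0.16 and did not pass. Without wild type cerebellum replicate 4, only Ugt8a passed and the median over the members was 0.33 instead of 0.64. Without wild type cerebrum replicate 2 or 3, 3 of the 9 passed. Mog was not called without cerebrum replicate 2 (0.58, adjusted p = 0.0528) and Ugt8a was not without cerebrum replicate 3 (0.67, adjusted p = 0.0516). Cnp lost its call without any of cerebrum replicates 2, 3 and 4 or cerebellum replicates 1 and 4 (0.33 to 0.64, adjusted p from 0.0534 to 0.190).

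Within groups, 7 of the members varied together from library to library, and Ugt8a and Opalin correlated less with them. After the mean of each group was subtracted, the log2 levels of Mbp, Mog, Mag, Mobp, Cnp, Cldn11 and Mal correlated with Pearson's r of 0.66 to 0.95 over the 24 libraries (median 0.86 over 21 pairs). Ugt8a correlated with these 7 at 0.18 to 0.74 and Opalin at 0.03 to 0.57, while Ugt8a and Opalin correlated with each other at 0.85. The points share libraries and scaling, so the coefficients are a description. Ugt8a and Opalin spread most in mutant cerebellum, with coefficients of variation of 65.7% and 66.4%. In mutant cerebrum at P75 these were 4.84% and 6.61%, so the groups do not weigh equally in their correlation. Of 14627 other genes with at least 1 CPM in every group, those most like the members' mean included Fa2h, the fatty acid 2-hydroxylase of myelin lipids (r = 0.95), Gltp, a glycolipid transfer protein (0.93), Arsg, a lysosomal sulfatase (0.93), and Cryab, a small heat shock protein (0.92). Tmem63a, an ion channel, Gsn, an actin-severing protein, and Gjb1, a connexin of myelin, followed at 0.91 each.

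Other genes of the oligodendrocyte lineage and of myelin supply were placed beside the members in cerebrum at P75. Of 19 enzymes of cholesterol synthesis, 13 were called lower in mutants and 0 higher (median log2 fold change -0.60), where 1 of 9 core myelin genes was called. Sqle, squalene epoxidase, fell by 0.85 ± 0.09 on the log2 scale (SE, adjusted p = 2.29e-05), and Msmo1, Fdft1 and Cyp51, later or neighbouring steps of the pathway, had -0.68, -0.62 and -0.60 (adjusted p from 8.17e-05 to 0.000184). Cholesterol is a major lipid of myelin, but neurons and astrocytes make it too. Of 13 enzymes and carriers of myelin sphingolipids and fatty acids, 2 were called lower, Fasn (-0.22 ± 0.07) and Scd2 (-0.23 ± 0.07), and the median was -0.04. Both calls lay close to the threshold (adjusted p = 0.0403 and 0.0465), and both were lost with library size scaling (adjusted p = 0.270 and 0.245). Fasn also lost its call without any 1 library other than wild type replicate 2 (-0.22 to -0.18), and Scd2 without any 1 library other than mutant replicate 2 or wild type replicate 2 (-0.25 to -0.19).

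Of the other 24 myelin and mature oligodendrocyte genes, 1 was called higher and 2 lower at P75, with a median of 0.00. Cd9, a tetraspanin also made by microglia, had 0.89 ± 0.20, and 0.34 (adjusted p = 0.117) without mutant replicates 1 and 2. Tppp, a tubulin polymerization protein, fell by 0.34 ± 0.06 (adjusted p = 0.00291, edgeR). Between wild type tissues at P42, Tppp had a log2 difference of -1.16 ± 0.14 (cerebellum over cerebrum), while 23 of the 24 genes were higher in cerebellum. Cryab had -0.41 ± 0.11 in P75 cerebrum. The call of Cryab was lost with library size scaling and without mutant replicate 3 or 4 or wild type replicate 1 or 3 (-0.38 to -0.30, adjusted p from 0.0516 to 0.0892). Of 10 transcription factors of the lineage, among them Olig2, Sox10 and Myrf, 0 were called by edgeR (median 0.04), and 0 had an unadjusted p under 0.05. Precursor markers Cacng4 and Pdgfra were called lower among 10 (-0.42 ± 0.08 and -0.32 ± 0.07), and Gpr17, a receptor of differentiating cells, among 12 markers of newly formed oligodendrocytes (-0.34 ± 0.10, adjusted p = 0.0407). Cacng4 and Pdgfra lost their calls without mutant replicates 1 and 2 together (adjusted p = 0.0541 and 0.0511), as did Pdgfra without mutant replicate 1 (-0.28, adjusted p = 0.050) and with library size scaling (-0.21, adjusted p = 0.0597). Gpr17 lost its call in each of these settings and without mutant replicate 2 or 3 or wild type replicate 3 or 4 (-0.35 to -0.24).

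On the axonal side, 15 of 15 genes of the node of Ranvier, its flanks and the neurofilaments had negative log2 fold changes at P75, and 6 were called lower (median -0.26). Cntnap1, the axonal partner at the paranodal junction with myelin, had -0.48 ± 0.08 (adjusted p = 0.00155), Nefl, a neurofilament subunit, -0.36 ± 0.08, and Ank3, the nodal scaffold ankyrin-G, -0.36 ± 0.09. Without mutant replicates 1 and 2, Cntnap1 remained called and Nefl and Ank3 did not (-0.25 and -0.27, adjusted p = 0.0838 and 0.131), nor did Ank3 without mutant replicate 1 alone (-0.29, adjusted p = 0.0519). Excitatory neuron markers were called lower for 8 of 10 (median -0.36) and summed to 1286 to 1673 CPM in mutants and 1826 to 2065 CPM in wild types, and the part of neuronal content in the axonal genes was not tested. Of 9 genes reported in oligodendrocytes of inflamed tissue, 7 were called higher (median 2.33), with C4b, a complement component, at 3.01 ± 0.25 and H2-K1, a class I antigen-presenting molecule, at 2.38 ± 0.24; other brain cells make these too. Interferon-stimulated genes were called higher for 10 of 10 (median 4.24) and microglia markers for 5 of 10 (median 0.66).

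**Figure D4:**
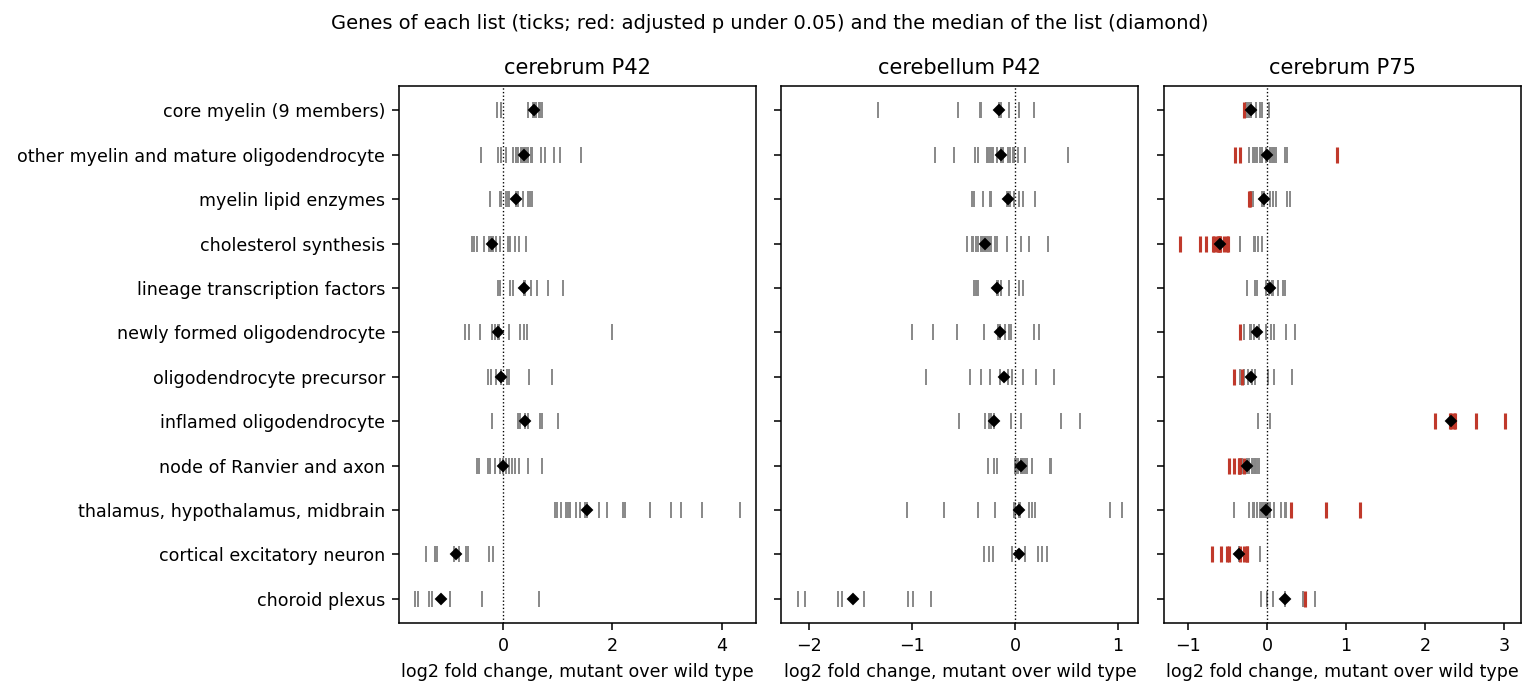
Log2 fold change, mutant over wild type (x axis, with its own scale in each panel), of the genes of 12 lists (ticks, red where the adjusted p was under 0.05) and the median of each list (diamonds) in P42 cerebrum, P42 cerebellum and P75 cerebrum. The core myelin median is 0.57 in cerebrum at P42 beside a deep region median of 1.54, and -0.21 in cerebrum at P75 beside a cholesterol synthesis median of -0.60.

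Overlap with other genes limits the counts of some members. Cnp shares its locus with Dnajc7 on the other strand, which held 51531 counts over the 24 libraries beside 203484 for Cnp, and the labels do not say whether counting used strand. The genes overlapping Mbp, Mog and Mobp held at most 901 counts each, beside 41914 or more for the member.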

How the data were processed

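Raw read counts per gene were deposited by the authors in 2 tables, one for both tissues at P42 and one for cerebrum at P75. The authors' result tables give log2 fold changes and adjusted p-values per the file headers. The submitters' processing notes name HISAT2, DESeq2 and mm10, and the labels a Trizol extraction with poly(A) enrichment. Neither the read counter nor strandedness is stated there.

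Each comparison of 4 mutant and 4 wild type libraries was fitted with edgeR 4.0.16 (R 4.3.3, limma 3.58.1) by the quasi-likelihood F test, after filterByExpr and TMM scaling, with sex as a term at P42. P-values were adjusted by Benjamini-Hochberg over all genes tested, and a call is an adjusted p under 0.05. CPM used TMM library sizes within a tissue and age, and log2 levels a pseudocount of 0.5 CPM. Interactions were fitted over 16 libraries. Age alone was not tested, since the ages lie in separate tables. Alternatives included DESeq2 1.42.0, other scalings and filters, leaving out libraries and marker covariates, some of them chosen after the data were seen. The fits were tested on simulated data.

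Members, gene lists and the rule for named genes were chosen with earlier results of these data known. Genes named were the 9 members, Polr3a, the up to 4 genes of a list with the smallest p among those called (where none was called, up to 2 with the smallest p), and the 8 genes most like the members; some genes under this rule are not reported here. GC content came from the longest GENCODE vM21 transcript and promoters from RefSeq.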

Additional observations from a re-analysis of the deposited data

Results flagged for a closer look

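Opalin in mutant cerebrum at P42 had 1 library far from the others. Replicate 4 held 30.2 CPM, against 13.1 to 15.8 CPM in the other mutants, and the gap to the nearest of them was 0.838 of the group's range, above Dixon's 95% critical value for 4 samples. Of 54 groups examined in this way 1 stood out, and chance gives about 1 in 20. The same library held the highest Ugt8a level of the 4 mutants, 119 CPM.

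The genotype effect on 2 members differed between ages in cerebrum, where only the P42 libraries included females. The effect at P75 minus that at P42 was -0.84 for Mobp (adjusted p = 0.0269) and -0.86 for Mog (adjusted p = 0.0424) on the log2 scale by edgeR's interaction test. At P75 4 of 4 mutants lay below all wild types for both genes, and at P42 4 of 4 mutants lay above all wild types for Mobp. For Mog at P42 the groups overlapped.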

How the results depend on the processing

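In cerebrum at P42 the count was 0, but 1 with DESeq2 and 6 with no filter on low counts; in cerebellum it was 0, but 1 with no filter. In cerebrum at P75 the count was 1, against 3 with DESeq2, 2 with no filter, and 0 with library size scaling, without mutant replicates 1 and 2, or at an adjusted p under 0.01. The interaction with tissue gave 0, and 4 with no filter. The interaction with age gave 2, against 5 with DESeq2, 7 with no filter, 1 with library size scaling, and 0 without P42 mutants 3 and 4, with the deep region covariate, or at an adjusted p under 0.01. The wild type tissue difference gave 5, and 1 at an adjusted p under 0.01. The members' median moved to -0.10 with library size scaling at P75 and to 0.49 with the choroid plexus covariate in cerebellum. The cause of these changes was not tested. Over all genes, calls in cerebrum at P42 numbered 3, against 233 with DESeq2 and 1312 with no filter, in cerebellum 2, against 41 and 153, and for the interaction with age 250, against 618 and 1176; at P75, 2502 genes were called, and 774 without mutants 1 and 2. Library size scaling moved the median of all genes by 0.11 at P75 and by 0.15 between tissues.

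Some log2 differences changed sign. In cerebrum at P42 Ugt8a was 0.04 with library size scaling. In cerebellum Mbp was 0.03 with no sex term and 0.06 without mutants 1 and 4, where Mog was 0.23, Cldn11 0.08 and Ugt8a 0.07; with the choroid plexus covariate Mbp was 0.60, Mog 0.52, Mag 0.21, Cldn11 0.49 and Ugt8a 0.25. At P75 library size scaling gave Cnp 0.05, Cldn11 0.02 and Polr3a 0.01, and Mag was -0.03 without mutants 1 and 2. In the interaction with age, Ugt8a was 0.19 and Opalin 0.27 without P42 mutants 3 and 4, and Ugt8a was 0.20 with the covariate. Mal was 0.03 in the tissue difference with library size scaling.

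Leaving out 1 library at a time gave Ugt8a -0.29 to 0.11 and Opalin -0.49 to 0.19 in cerebrum at P42. In cerebellum it gave Mbp -0.40 to 0.21, Mog -0.70 to 0.09, Mobp -0.30 to 0.49, Cldn11 -0.54 to 0.10, Mal -0.46 to 0.31 and a median of -0.56 to 0.09. At P75 the count ran from 0 to 2 and the median from -0.24 to -0.15, with Mag at -0.09 to 0.09 and Cnp at -0.13 to 0.03. The interaction with age called 0 to 7 members, with a median of -0.78 to -0.53 and Opalin at -0.45 to 0.22. The tissue difference called 1 to 6, with a median of 0.33 to 0.77, Mal at -0.20 to 0.06 and Opalin at -0.36 to 0.20. In cerebrum at P42 the median ran from 0.44 to 0.70.

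The labels do not say that a replicate number marks a shared litter or day. Same-numbered deviations correlated at 0.01 to 0.28 in cerebrum at P42, -0.40 to 0.08 in cerebellum and 0.04 to 0.19 in cerebrum at P75, so no comparison had every pair above 0.1 and the numbers were not taken as pairs. At P75 4 of 4 mutants correlated best with their own number, a hint from the data and not from the design. With a replicate block, 4 members were called at P75 (Ugt8a, Mobp, Mog and Mal), and in cerebellum Mbp was 0.11 and Polr3a -0.03. Over all genes at P75, 3537 of 17523 were called with the block, 1844 of them lower, against 2502 and 1160 without it.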
